A study of Mus musculus with 62 samples.

Results

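Of 21755 protein-coding genes on the mouse autosomes and chromosome X, 9 that write, read or help to place histone H3 lysine 9 (H3K9) methylation, or that silence repeats beside it, were examined for changes in chromatin after loss of Daxx. The list was set by gene name and not by a threshold on any value, but with earlier results of these data known. Setdb1, Suv39h2 and Ehmt1 are H3K9 methyltransferases, Trim28 and Atf7ip are partners of Setdb1, Cbx5, Cbx1 and Cbx3 encode the heterochromatin proteins HP1α, HP1β and HP1γ, and Morc3 is an ATPase that helps to repress endogenous retroviruses. All sites called changed that overlapped one of these genes or the 10 kb on either side of it were taken from 14 comparisons of libraries. There were 415 such sites, out of 1724016 changed sites in the same comparisons.

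Trimethylation of H3K9 is the mark of constitutive heterochromatin. At endogenous retroviruses it is laid down by Setdb1, which Trim28 recruits through zinc-finger proteins of the KRAB family and which Atf7ip stabilises, and the HP1 proteins bind it. Suv39h2 acts mainly on pericentric repeats, and Ehmt1 works with Ehmt2 in mono- and dimethylation of H3K9. Daxx is a chaperone that deposits the histone variant H3.3 at heterochromatin, where it acts beside this machinery. The question asked here was whether the genes of the machinery carried altered chromatin themselves once Daxx was lost.

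CUT&Tag, in which an antibody tethers a transposase that cuts and tags the DNA around its target, was done on haematopoietic stem and progenitor cells (HSPCs, lineage-negative c-Kit+ bone marrow cells sorted with magnetic beads) of C57BL/6 mice. WT mice were Daxx +/+ and Daxx-KO mice Daxx F/F, while DKO mice were Daxx F/F and also Pu.1 F/F. All of them, the controls included, were Cre +/-. Pu.1, encoded by Spi1, is a transcription factor of blood cells. The labels give the time after induction (3, 8 or 24 w.p.i., weeks post induction) but neither the Cre driver nor an age. The study's methods describe both an interferon-inducible and a tamoxifen-inducible Cre. They place the DKO mice on the interferon-inducible one, Mx1Cre, and name no driver for the CUT&Tag libraries of WT and Daxx-KO mice. An age at treatment is given there only as a usual range. The earliest libraries were made for H3K27ac, H3K9me3, H3.3 and Pu.1, those of 8 w.p.i. for H3K9me3 and H3K27me3, and those of 24 w.p.i. for all of these targets. Each group had 2 libraries per target (3 at 8 w.p.i.). In all, 54 of 62 libraries entered the tables, and the 8 DKO libraries at 24 w.p.i. were in none. At 8 and 24 w.p.i. libraries of different antibodies came from the same mice, at 24 w.p.i. from the same 2 WT and 2 Daxx-KO mice for all 5 antibodies. At 3 w.p.i. H3.3 and Pu.1 shared their Daxx-KO mice, while H3K27ac and H3K9me3 shared other Daxx-KO mice. Of the WT mice of that time, only that of replicate 2 is known to be shared by all antibodies. A 600-bp window held on average 1.21 to 33.78 reads in the earliest libraries, 0.2 to 3.29 in those of 8 w.p.i. and 3.97 to 10.3 in the latest. At Daxx itself, H3K27ac over chr17:33909801-33913400 came to 113 and 93.7 normalized counts in Daxx-KO mice at 24 w.p.i. and to 858 and 368 in WT mice, and over chr17:33909601-33911450 at 3 w.p.i. it was 24.2 and 13.6 against 65.5 and 105. The genotypes did not overlap at either time. Beside this stretch H3K27ac was gained at 24 w.p.i., for example 1570 and 1040 against 775 and 581 over chr17:33908401-33909500, so that the loss covers part of the gene. At 3 w.p.i. H3K27ac was also gained over chr17:33915201-33915850, 33.9 and 56.1 against 2.15 and 15.4. H3.3 at that time was gained over chr17:33909151-33910200, 82.9 and 122 against 40.7 and 20.9. Pu.1 was gained over chr17:33909201-33909900, 59.9 and 103 against 32.4 and 28.8. The Daxx-KO mice of H3.3 and Pu.1 were others, so the H3K27ac loss at 3 w.p.i. does not cover them.

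The sequences below show where the promoter changes described further on lie. Each of the first 6 is the stretch of 150 bases directly before the furthest upstream principal start site of a member whose principal start had called sites of more than one antibody at 24 w.p.i. or at both times, written 5′ to 3′ in the direction of the gene, from the mm10 build. Capitals mark GGAA, the core that transcription factors of the ETS family such as Pu.1 recognise, and TTCC, the same core on the other strand. Of all 32851 RefSeq promoters, 80.8% hold this core in the 150 bases before the start. The last is the centre of a stretch in an Atf7ip intron where sites of 4 antibodies changed.
Setdb1, chr3:95357203-95357352, minus strand: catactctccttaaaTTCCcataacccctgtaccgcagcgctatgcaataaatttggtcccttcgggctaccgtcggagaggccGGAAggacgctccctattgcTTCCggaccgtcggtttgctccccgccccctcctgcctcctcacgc
Suv39h2, chr2:3475032-3475181, minus strand: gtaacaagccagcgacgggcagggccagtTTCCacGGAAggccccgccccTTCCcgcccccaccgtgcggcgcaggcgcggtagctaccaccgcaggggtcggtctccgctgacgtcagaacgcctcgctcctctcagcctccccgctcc
Trim28, chr7:13024002-13024151, plus strand: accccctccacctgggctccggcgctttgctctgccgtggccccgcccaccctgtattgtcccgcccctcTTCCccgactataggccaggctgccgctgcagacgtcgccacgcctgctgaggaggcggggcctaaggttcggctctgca
Cbx5, chr15:103239817-103239966, minus strand: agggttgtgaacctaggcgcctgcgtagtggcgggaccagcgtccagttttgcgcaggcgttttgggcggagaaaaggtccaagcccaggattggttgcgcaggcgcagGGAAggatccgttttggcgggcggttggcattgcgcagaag
Cbx3, chr6:51470210-51470359, plus strand: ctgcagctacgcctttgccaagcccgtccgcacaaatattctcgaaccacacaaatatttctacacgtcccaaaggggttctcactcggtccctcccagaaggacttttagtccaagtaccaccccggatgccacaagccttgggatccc
Morc3, chr16:93831971-93832120, plus strand: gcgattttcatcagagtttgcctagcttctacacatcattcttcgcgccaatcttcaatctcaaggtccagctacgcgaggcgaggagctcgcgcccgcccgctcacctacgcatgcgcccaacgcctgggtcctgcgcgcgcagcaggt
Atf7ip intron, chr6:136583991-136584110, plus strand: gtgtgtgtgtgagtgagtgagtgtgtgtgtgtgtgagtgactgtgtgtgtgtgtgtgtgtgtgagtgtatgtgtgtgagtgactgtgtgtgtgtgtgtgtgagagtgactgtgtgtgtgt

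The promoter stretches had 54.0 to 72.0% G and C and held 7 to 17 CpG dinucleotides each. The Setdb1 stretch lies inside Gm37500, a single-exon transcript on the other strand, and the others hold no annotated exon. The Setdb1 and Suv39h2 stretches held the core at 3 places each, those of Trim28 and Cbx5 at 1 place, and those of Cbx3 and Morc3 at none. Cbx1 meets the same condition, but its stretch runs into an annotated exon of the gene and is not printed. It held the core at no place. The longer Pu.1 word GAGGAAGT, searched on both strands, was in none of the 11 RefSeq promoters of the 9 members (250 bases before to 50 after the start) and in 3.2% of all RefSeq promoters. The Atf7ip stretch is a simple repeat in which 77.3% of neighbouring base pairs read GT or TG, and all of it is masked as repetitive in the reference.

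For each comparison the files list only sites that had passed a first test, with a normalized count (reads over a scaling constant of the library) for every library. A site was called gained or lost, by the direction of the group means in the mutant, when its adjusted p in the authors' negative binomial test was below 0.05. A region without a listed site therefore has no value here. With 2 libraries against 2 no exact permutation test of a single site can go below p = 0.333, and with 3 against 3 none below p = 0.1, so each site is given by its library values. Within a group the labels give each library its own mouse number, except the first WT library for H3.3 and for Pu.1 at 3 w.p.i., which has none, so that its being from a separate mouse is not stated.

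At 3 w.p.i. the members gained more H3.3 sites than they lost. There were 25 gained and 6 lost H3.3 sites, 80.6% gained (Wilson 95% interval 63.7 to 90.8), and 58.3% of all H3.3 sites called in that comparison were gained. For Pu.1, 24 sites were gained and 11 lost, 68.6% gained (52 to 81.4). Of all Pu.1 sites 55.2% were gained. The intervals are no test of the list, which was set with earlier results known, and Ehmt1 and Atf7ip gained 7 H3.3 sites each. Nothing particular to the members is read from the H3.3 or the Pu.1 share. Pu.1 sites were called at 9 of 9 members and H3.3 sites at 8, the exception being Cbx1. Called sites were common at any gene with its flanks. Of all protein-coding genes, 79.6% had a gained and 61.7% a lost Pu.1 site, and 78.0 and 57.8% a gained and a lost H3.3 site. The intervals cover counting error only, and neighbouring sites are not independent. Across all sites the share gained moved with base composition, from 35.1% of H3.3 sites with under 45% G and C to 90.9% of those with 55% or more, and from 30.2 to 91.4% for Pu.1. The members' H3.3 sites were gained at 7 of 8 places with under 45% G and C, at 14 of 18 between 45 and 55% and at 4 of 5 above that. The part of base composition in the members' values was not tested.

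H3K27ac, a mark of active promoters and enhancers, was gained at 31 and lost at 32 sites of the members at 3 w.p.i., and 41.4% of all H3K27ac sites were gained. At 24 w.p.i. 59 H3K27ac sites were gained and 57 lost (50.9% gained, 42.3% of all sites). The H3.3 sites at 24 w.p.i. were 24 gained and 33 lost (42.1%, 52.6% of all), and the Pu.1 sites 36 gained and 24 lost (60%, 48.1% of all). The shares of these 4 comparisons lie near those of their tables and nothing particular to the members is read from them.

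H3K9me3, the product of Setdb1 and Suv39h2, changed at few places of the 9 members. Suv39h2 itself had no called H3K9me3 site in any table, and Setdb1 had 1, at 24 w.p.i. At 3 w.p.i. 2 sites were gained and 2 lost (78.9% of all H3K9me3 sites gained), and at 8 w.p.i. 2 were gained and 1 lost (65.2% of all). At 24 w.p.i. 13 were gained and 7 lost (65.0%, Wilson interval 43.3 to 81.9, with 47.9% of all sites gained). Nothing particular to the members is read from these H3K9me3 shares. H3K27me3, the mark of Polycomb repression, was the most one-sided among the comparisons with more than 4 member sites. At 24 w.p.i. 15 of 16 H3K27me3 sites of the members were lost and 1 was gained, 6.25% (1.11 to 28.3), while 41.1% of all H3K27me3 sites were gained. The loss held at 8 of 9 member sites with 55% or more G and C, where 23.0% of all sites were gained, and at 7 of 7 with 45 to 55%, where 40.2% were gained. Of the 16 sites, 8 lay within 1 kb of the start of a neighbouring gene. Within 1 kb of a principal start of a member lay 6 sites, 1 gained and 5 lost, and 26.5% of all H3K27me3 sites at principal starts were gained. More than 1 kb from every principal start lay 5 member sites, all lost, where 42.5% of all sites were gained.

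**Figure D1:**
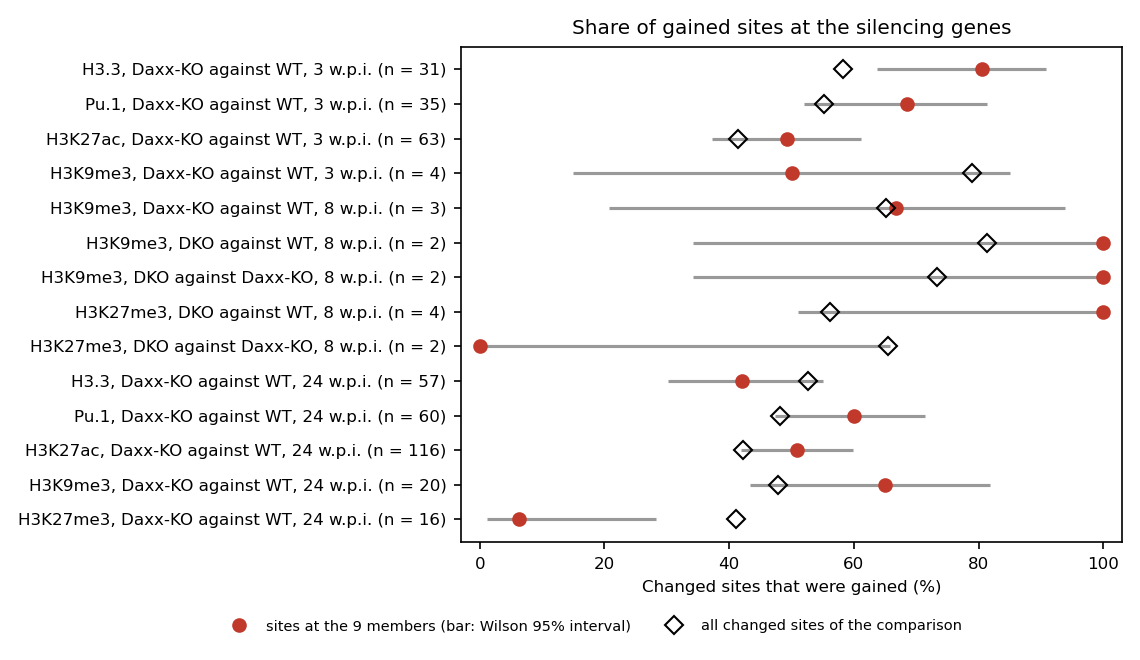
Percentage of called sites that were gained in each comparison, for the sites at the 9 members (red points, with Wilson 95% intervals, number of sites in brackets) and for all called sites of the comparison (open diamonds). Among comparisons with more than 4 member sites the member value lies furthest from its table for H3K27me3 at 24 w.p.i., 6.25 against 41.1%, and for those with 4 sites or fewer the intervals are wide. Of all H3K27me3 sites at principal starts at that time, 26.5% were gained. A lost H3K27me3 site lay at 6 of 9 members with their flanks and at 77.3% of protein-coding genes.

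The longest genes had the most called sites. Ehmt1 had 107 in all (51 gained, 56 lost) and Atf7ip 93 (58 and 35), whereas Suv39h2 and Cbx1 had 14 each. Per 10 kb of gene and flanks the densest was Trim28, with 10.0 sites, and the sparsest Cbx1, with 3.54. Both groups of libraries were apart, with every Daxx-KO value on one side of every WT value, at all 31 H3.3 sites (98.6% of all called sites of that table) and all 35 Pu.1 sites (98.3%) of the members at 3 w.p.i., and at 109 of 116 H3K27ac sites (97.5%) at 24 w.p.i.

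**Figure D2:**
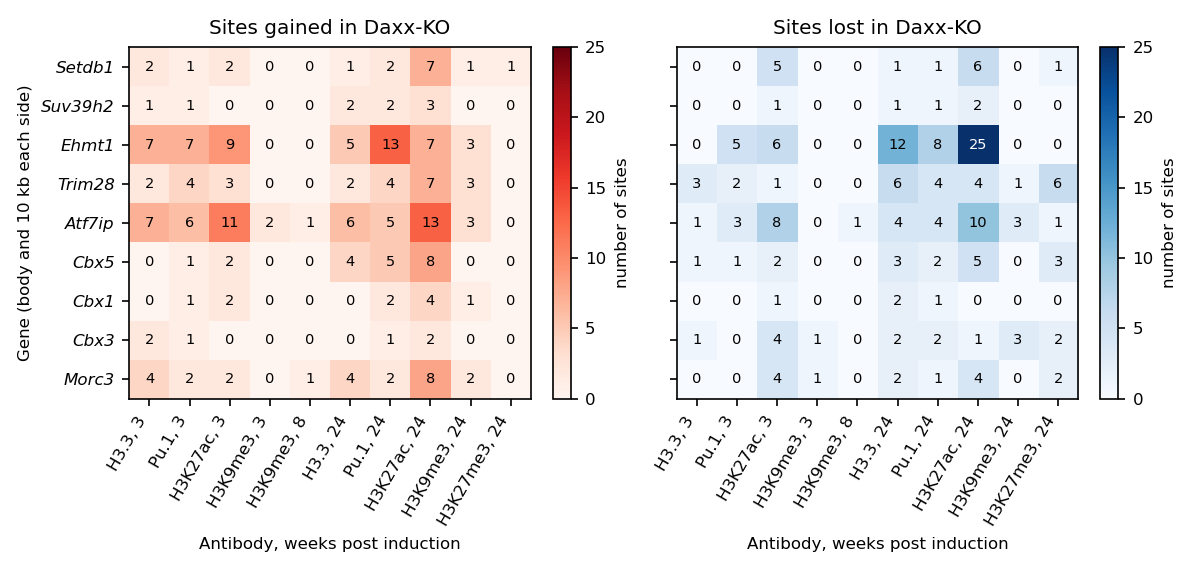
Number of sites gained (left, red) and lost (right, blue) in Daxx-KO HSPCs, with WT as reference, at each member and the 10 kb on either side, by antibody and w.p.i. The 25 lost H3K27ac sites of Ehmt1 at 24 w.p.i. are the highest count, and H3K27me3 at 24 w.p.i. has 1 gained site, at Setdb1.

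Setdb1 trimethylates H3K9 at endogenous retroviruses. At 3 w.p.i. Pu.1 was gained over its start, chr3:95356651-95357650, at 88.2 and 45.4 normalized counts in Daxx-KO against 15.2 and 12.8 in WT. In the same place H3K27ac, measured in other Daxx-KO mice, was low and lost, 7.75 and 1.7 against 12.9 and 50.8 (chr3:95357101-95357750). At 24 w.p.i. the start carried gains in 3 marks. H3K27ac over chr3:95356801-95357850 was 200 and 236 against 144 and 102. H3K9me3 over chr3:95357201-95357850 was 33.8 and 44.8 in Daxx-KO, against a listed 0 in each WT library, and 55.1% of this site is masked as repetitive. H3K27me3 over chr3:95356401-95357300 was 206 and 220 against 104 and 166, the only gained H3K27me3 site of any member at this time. The groups did not overlap at any of these 5 sites. Just inside the gene, H3K27ac fell at chr3:95355551-95356700, from 172 and 176 in WT to 91.4 and 79.0.

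Suv39h2, which also trimethylates H3K9, showed opposite Pu.1 and H3K27ac changes at its start between the times. At 3 w.p.i. H3.3 (53.7 and 59.7 against 25.2 and 5.24, chr2:3474751-3475400) and Pu.1 (38.6 and 37.3 against 11 and 6.39, chr2:3474551-3475150) were both gained over the first exon. H3K27ac, measured in other Daxx-KO mice, was lost just upstream, 20.4 and 24.6 against 76.3 and 54.1 (chr2:3475151-3476100). At 24 w.p.i. Pu.1 over the start was lost, 67.5 and 52.2 against 124 and 106, and H3K27ac was gained, 581 and 533 against 391 and 415. In the H3.3 and Pu.1 tables at 3 w.p.i. 1 read of the shallower WT library is worth 2.63 and 3.23 normalized counts, so that its lowest values rest on a few reads.

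Ehmt1, the partner of Ehmt2 in H3K9 mono- and dimethylation, is the longest member and had 7 gained and no lost H3.3 sites at 3 w.p.i. The highest, chr2:24927451-24928850, lies 7837 bp upstream of the start and near the start of Arrdc1, and was 141 and 119 against 70.8 and 5.24. Pu.1 was gained over almost the same stretch, 161 and 126 against 55.4 and 12.8. At 24 w.p.i. Pu.1 over the edge of that stretch, chr2:24927301-24927900, was listed at 0 in both Daxx-KO libraries and was 37.4 and 40 in WT. The gene lost 25 H3K27ac sites and gained 7 at 24 w.p.i. Those lost included chr2:24917051-24918750 in the first intron, with 38.2 and 49.8 against 200 and 207. The gain nearest the start was chr2:24919651-24920250, with 223 and 154 against 125 and 105. H3K9me3 was gained at 3 Ehmt1 sites at 24 w.p.i. and lost at none, for example at chr2:24895101-24895900 in an intron, where it was 39.5 and 56.3 in Daxx-KO against a listed 0 in each WT library.

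Trim28, the corepressor that brings Setdb1 to retroviral sequences, had an H3K27ac gain over its start at 24 w.p.i. that was among the highest, 2510 and 2120 normalized counts in Daxx-KO against 1330 and 971 in WT (chr7:13022751-13025650). All 6 H3K27me3 sites of Trim28 and its flanks were lost at this time. The one at the promoter, chr7:13022901-13024000, was 69.4 and 48.8 against 127 and 180, and 3 others lay near the starts of the neighbours Zbtb45, Chmp2a and Ube2m. H3K27ac at the Ube2m end of the flank rose as well, 3620 and 2970 against 2090 and 2090 (chr7:13037201-13039500). H3K9me3 was gained at 3 sites and lost at 1 site, chr7:13007401-13008500, with 21.7 and 28.1 against 87.0 and 101. Within the gene H3K9me3 was gained over coding exons at chr7:13028751-13029400, 29.3 and 45.9 against 3.11 and 0. A Pu.1 site near Chmp2a was gained at both times, 84.3 and 70.5 against 39.2 and 44.8 at 3 w.p.i. and 196 and 251 against 46.1 and 32.6 at 24 w.p.i. At 24 w.p.i. a Pu.1 site that overlapped its end, chr7:13035301-13035900, was lost, as was the nearby chr7:13036051-13037150. Trim28 and its flanks had 4 gained and 4 lost Pu.1 sites at that time.

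Atf7ip, which keeps Setdb1 stable and in the nucleus, held 2 of the 4 H3K9me3 changes at 3 w.p.i. and 2 of the 3 at 8 w.p.i. Both H3K9me3 sites gained by the members at 3 w.p.i. were in introns upstream of its principal start, at chr6:136507051-136507750 (13.9 and 10.0 against 3.5 and 2.32) and chr6:136508901-136509650 (13.9 and 11.7 against 4.38 and 1.74). At 24 w.p.i. H3K9me3 next to the second, chr6:136509601-136510700, was lost, 26.8 and 53.1 against 123 and 74.0. At 8 w.p.i. H3K9me3 in an intron, chr6:136527751-136528650, was 19.9, 12.9 and 26.7 against 5.53, 6.75 and 9.99. A site further on, chr6:136578701-136579400, was lost, 1.81, 0 and 0 against 17.4, 11.8 and 9.99. The groups were apart at all of these sites.

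The Atf7ip intron that holds the GT repeat printed above changed with 4 antibodies. At 3 w.p.i. Pu.1 over chr6:136583401-136585200 was 488 and 238 against 35.5 and 79.9, and H3.3 over chr6:136583351-136584650 was 64.8 and 345 against 16.8 and 36.7. At 24 w.p.i. H3.3 was again higher in Daxx-KO, 128 and 175 against 17.5 and 82.7, whereas Pu.1 over chr6:136583301-136584550 was lower, 32.7 and 31.3 against 202 and 103. A second Pu.1 site at the far end of the stretch, chr6:136584401-136585000, was gained at that time, 25.9 and 102 against 11.5 and 21.1. H3K27me3 there was lost, 27.9 and 26.7 against 80.3 and 60, and H3K9me3 at its end was gained, 45.9 and 149 against 45.1 and 44.0. Masked bases made up 93.7% of the H3K27me3 site and 81.7% of the H3.3 site at 24 w.p.i. Reads from such a repeat cannot be placed with certainty, and how the authors treated reads with more than one placement is not given in the sources used here.

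Cbx5 encodes HP1α and shares its promoter region with Hnrnpa1, whose start also lies within 1 kb of the sites over the Cbx5 start. At 24 w.p.i. H3K27ac over chr15:103239001-103241850 was 2450 and 2790 against 1440 and 1440. H3K27me3 over chr15:103239401-103240550 was 41.5 and 53.4 against 111 and 119, and H3.3 over chr15:103238951-103240100 was 79.5 and 65.7 against 0 and 30.1. At 3 w.p.i. H3K27ac had been lost 1785 bp upstream of the start, 9.69 and 29.7 against 63.4 and 73.9. At the second promoter of the gene, the H3K27ac site chr15:103215801-103216700 was gained at 3 w.p.i., 15.5 and 27.2 against 3.22 and 4.41. Beyond the 3′ end, chr15:103185301-103185900 lost Pu.1 at 3 w.p.i., 12.6 and 18.6 against 48 and 44.8, and an overlapping site gained it at 24 w.p.i., 38.2 and 81.5 against 11.5 and 11.6.

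Cbx1, which encodes HP1β, had few sites. Pu.1 was gained over its start at 3 w.p.i., 53.6 and 71.3 against 20.4 and 19.2 (chr11:96788551-96789700), and at chr11:96789601-96790350 at 24 w.p.i., 65.4 and 37.6 against 0 and 14.7. H3K27ac over the start was gained at 24 w.p.i., 512 and 487 against 306 and 257. The only H3K9me3 site of the gene, in an intron at chr11:96795201-96796050, was 51 and 47.9 against 0 and 7.5 at 24 w.p.i.

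Cbx3, which encodes HP1γ, has a promoter shared with Hnrnpa2b1, and changes there cannot be assigned to one of the genes. At 3 w.p.i. H3.3 (33.2 and 52.3 against 60.3 and 199, chr6:51469501-51470600) and H3K27ac (103 and 14.4 against 179 and 221, chr6:51470101-51470800) were lost over it. Cbx3 and its flanks also had 2 gained H3.3 sites at that time, and a gained one lay within 1 kb of a principal start too. At 24 w.p.i. H3K27ac was the highest of any member and was gained, 5980 and 5760 against 4140 and 2680 (chr6:51468851-51471150). The 3 other antibodies with a site there moved the other way. Pu.1 was 31.4 and 12.5 against 155 and 154, H3K9me3 16.6 and 22.9 against 59.1 and 52.5, and H3K27me3 177 and 164 against 233 and 260. Beyond the 3′ end H3K9me3 was lost at both times, 4.65 and 3.33 against 22.8 and 29 at 3 w.p.i. (chr6:51488701-51489600) and 133 and 151 against 199 and 231 at 24 w.p.i. (chr6:51487901-51488750). At 24 w.p.i. all 3 H3K9me3 sites of Cbx3 were lost and none was gained.

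Morc3 had 4 gained and no lost H3.3 sites at 3 w.p.i., the highest at chr16:93866651-93867550 in an intron, 102 and 53.1 against 25.2 and 36.7. At 24 w.p.i. H3.3 over chr16:93866701-93867300 was lost, 0 and 2.26 against 33.2 and 28.2. H3K9me3 upstream of the gene was lost at 3 w.p.i., 5.81 and 8.33 against 26.2 and 26.1 (chr16:93824001-93824700). At 8 w.p.i. it was gained about a kilobase further upstream, 17.2, 19.3 and 17.4 against 2.37, 1.69 and 11.2 (chr16:93822751-93823350). At 24 w.p.i. the promoter gained H3K27ac, 1340 and 1260 against 935 and 709 (chr16:93831201-93832900), and H3K9me3, 42.7 and 40.6 against 10.9 and 0 (chr16:93831951-93832550). It lost H3K27me3, 68.6 and 64.4 against 123 and 140 (chr16:93831601-93832750). The start of Chaf1b lies in the downstream flank of Morc3, so that sites there count for both genes. At 24 w.p.i. they included a gained H3K27ac site (chr16:93883901-93884500) and a lost H3K27me3 site (chr16:93883901-93884550). 

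Read across the members, the promoters at 24 w.p.i. gave the most uniform picture. A gained H3K27ac site lay within 1 kb of a principal start (the start of a transcript tagged as principal in GENCODE M21) at 9 of 9 members, at 17 of 22 other autosomal genes of H3K9 methylation and silencing, and at 40.3% of 20807 protein-coding genes. That last share counts genes without any H3K27ac in these cells too. Of the H3K27ac sites called within 1 kb of a principal start, 13 at the members were gained and 3 lost, and 55.6% of all such sites were gained. Where the WT mean was at least 100 normalized counts, 10 were gained and 2 lost at the members, and 59.4% were gained overall. The log2 ratios of the 9 gained sites nearest the starts ran from 0.46 at Atf7ip (305 and 284 against 293 and 136) to 1.01 at Trim28. The Daxx-KO and WT libraries overlapped at the Atf7ip site alone among these 9. Across all H3K27ac sites the share gained rose from 34.2% below 45% G and C to 65.4% at 55% or more, and 10 of 11 member sites in this top class were gained. The part of base composition in the promoter gains was not tested. At 3 w.p.i. the principal starts of 3 members had lost H3K27ac (Setdb1, Suv39h2 and Cbx3), as had 22.6% of genes, and 1, the second promoter of Cbx5, had gained it, as had 7.13%. At 24 w.p.i. 3 members had also lost an H3K27ac site there (Setdb1, Ehmt1 and Atf7ip), as had 30.8% of genes. For H3.3 at 3 w.p.i. the principal starts of Suv39h2 and Cbx3 had gained a site (30.0% of genes) and that of Cbx3 had also lost one (9.29%), and for Pu.1 those of Setdb1, Suv39h2 and Cbx1 had gained one (33.2%) and none had lost one (9.32%).

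**Figure D3:**
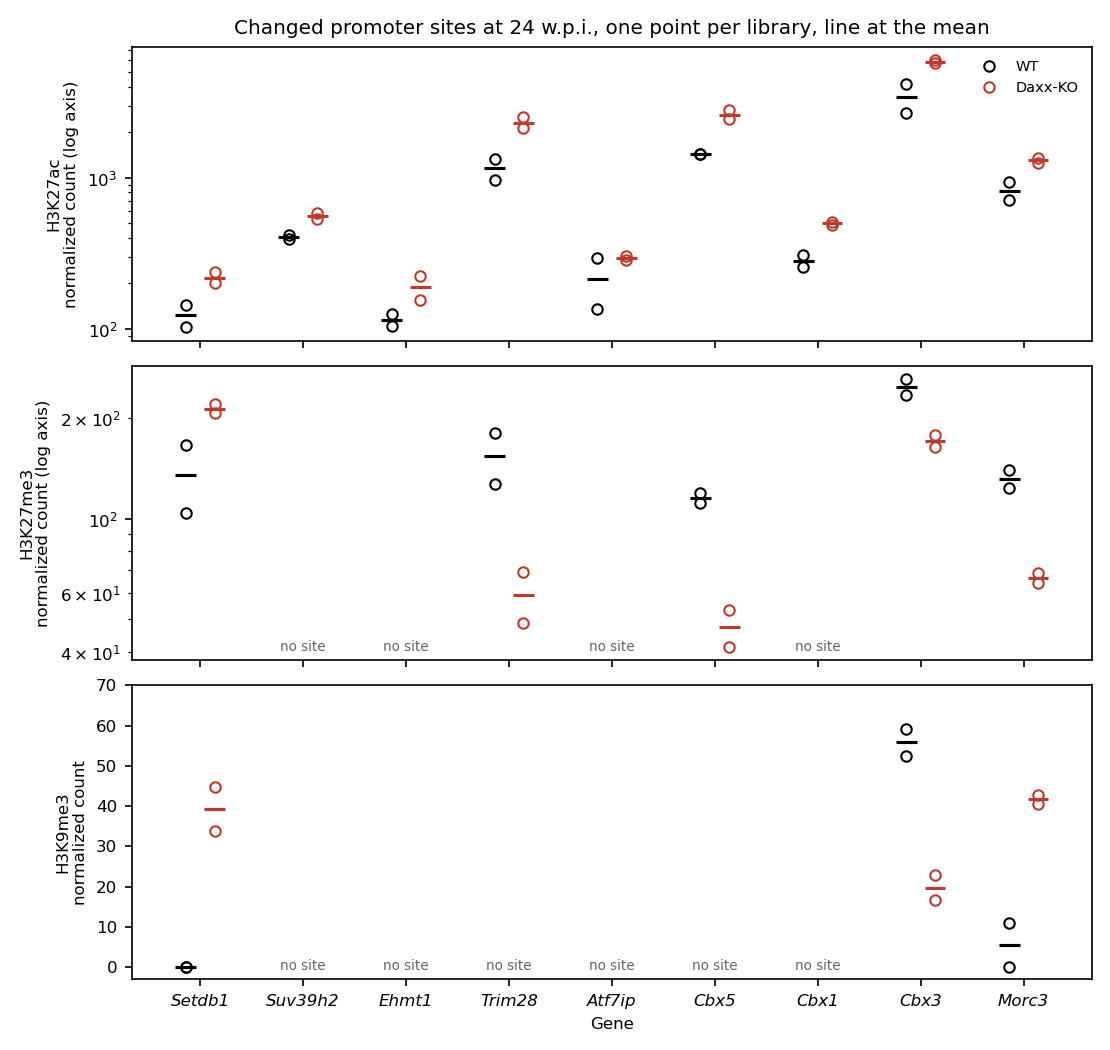
Normalized counts at 24 w.p.i. in each library (circles, WT black and Daxx-KO red, lines at the means of 2 libraries) for the called site nearest the principal start of each member, for H3K27ac and H3K27me3 on log axes and H3K9me3 on a linear axis. The H3K27ac means are higher in Daxx-KO at 9 of 9 members, while H3K27me3 is lower at 4 members and higher at Setdb1.

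Lost H3K27me3 sites lay at principal starts and elsewhere. Since all 9 members had a gained H3K27ac site at a principal start, a member with an H3K27me3 loss at one necessarily also had such a gain. A lost H3K27me3 site lay within 1 kb of a principal start at Trim28, Cbx5, Cbx3 and Morc3, 4 of 9 members, against 39.8% of protein-coding genes and 14 of 22 genes of the other list. The share of members is thus near that of all genes. Of 12 pairs of overlapping H3K27ac and H3K27me3 sites at the members 1 had the same direction, at Setdb1, and 47.3% of all such pairs in both tables had the same direction. That share covers pairs everywhere, and pairs at starts were not counted apart. At principal starts 55.6% of all H3K27ac sites and 26.5% of all H3K27me3 sites were gained. Some sites, as at Cbx3 and Setdb1, enter more than 1 pair. Nothing particular to the members is read from the pairs. Both marks were measured in the same 4 mice. H3K9me3 at principal starts was gained at 2 of 9 members (Setdb1 and Morc3) and 15.5% of genes, and lost at 1 (Cbx3) and 8.75% of genes. H3K27me3 was gained at 1, Setdb1, and 12.3% of genes. H3.3 and Pu.1 at 24 w.p.i. changed at principal starts of few members. H3.3 was gained at 1 member (22.6% of genes) and lost at none (19.4%), and Pu.1 was gained at 1 (20.7%) and lost at 2 (26.9%), Suv39h2 and Cbx3.

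**Figure D4:**
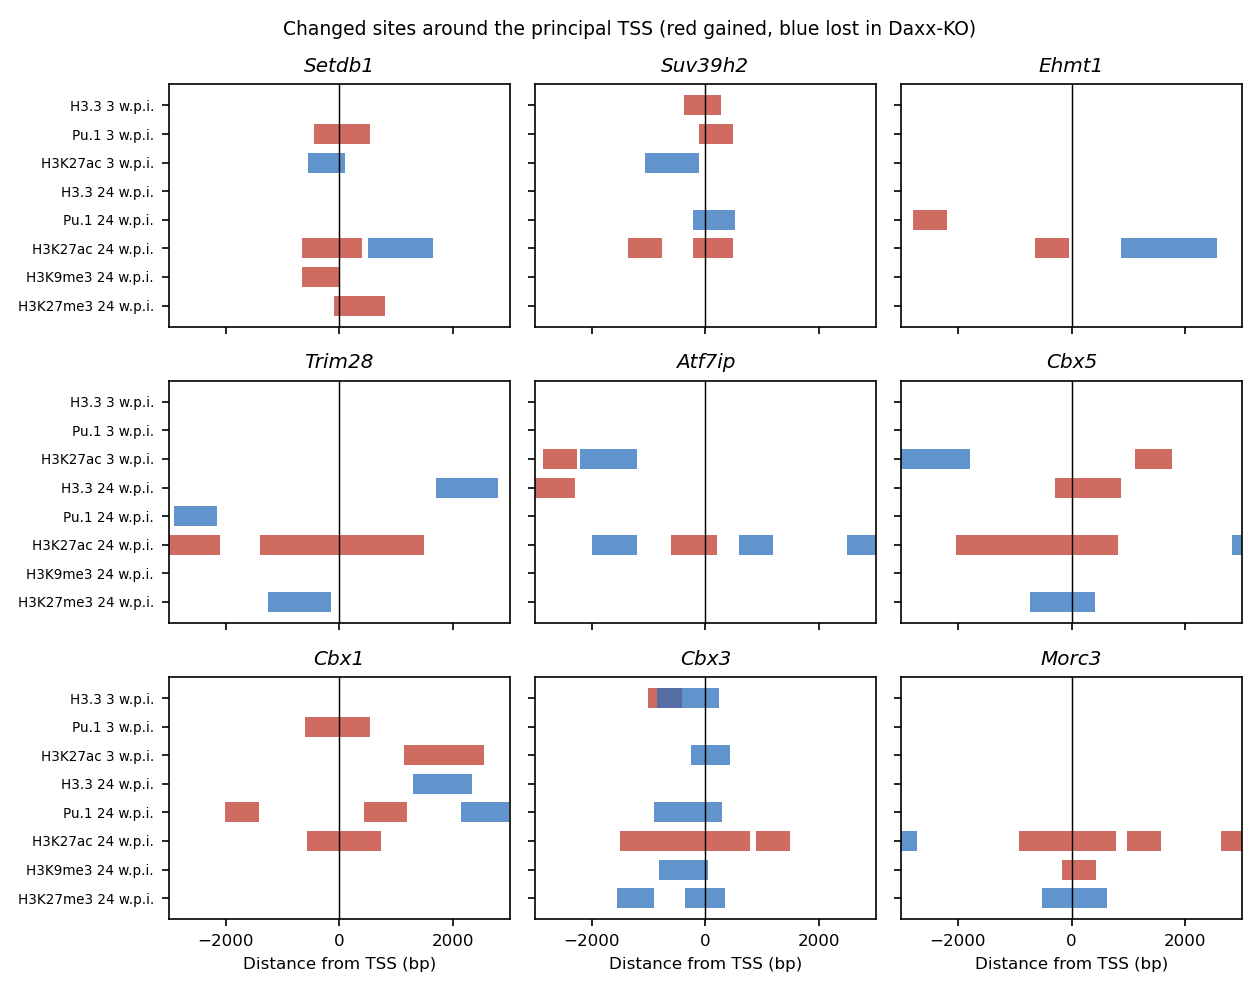
Called sites within 3000 bp of the furthest upstream principal start (TSS, vertical line) of each member, by antibody and w.p.i., with the gene running to the right. Red bars were gained and blue bars lost in Daxx-KO, and H3K27ac at 24 w.p.i. shows a red bar at or beside the start in all 9 panels.

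In DKO HSPCs, which lack Pu.1 as well as Daxx, few sites of the members changed at 8 w.p.i. Compared with WT, H3K27me3 was gained at 4 sites and lost at none (56.1% of all sites gained). Over the Setdb1 start it was 94.0, 42.8 and 28.3 in DKO and 15.7, 10.9 and 13.4 in WT (chr3:95355751-95357600). Over the promoter of Cbx3 and Hnrnpa2b1 it was 52.1, 48.9 and 0 against 13.1, 9.06 and 6.71 (chr6:51469551-51470500), so that 1 DKO library was below all WT libraries. The other 2 sites were beyond the 3′ end of Cbx5. Principal starts of 2 of 9 members were gained, against 10.7% of genes. Compared with Daxx-KO, 2 sites were lost and none gained (65.4% of all gained), both in downstream flanks, of Setdb1 near Cers2 and of Cbx5. The H3K27me3 comparison of Daxx-KO with WT at 8 w.p.i. was not used, because its controls were H3K9me3 libraries.

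For H3K9me3, DKO gained 2 sites against WT (81.4% of all gained) and 2 against Daxx-KO (73.4%), all 4 in Atf7ip introns. Over chr6:136527951-136528600 the DKO libraries had 10.8, 34.5 and 1.53 normalized counts and the WT libraries 2.25, 3.94 and 5.01. In the comparison with Daxx-KO, which uses the same DKO libraries, chr6:136527701-136528300 had 20.4, 36 and 2.92 against 7.94, 6.99 and 7.69. The second DKO library was the highest in each case, and it was also the shallowest, with a mean of 0.21 reads per window and 3.45 normalized counts per read. Without it, chr6:136567151-136567950, where DKO had 6.47, 69.1 and 15.3 and WT 10.3, 19.7 and 12.2, turned to a loss and 1 of the 2 sites against WT was left.

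Where a site of the same antibody was called at 3 and at 24 w.p.i., some directions at the members were kept and others reversed. For H3.3, 4 of 10 overlapping pairs were opposite (48.8% of all pairs), for Pu.1 5 of 10 (51.8%), for H3K27ac 14 of 24 (40.1%) and for H3K9me3 1 of 2 (43.4%). Of the 24 H3K27ac pairs 10 were lost early and gained late, as were 21.6% of all such pairs. Of the 14 opposite pairs, those at the starts of Setdb1, Suv39h2 and Cbx3 and upstream of Cbx5 were lost early and gained late. Of the 5 opposite pairs at Ehmt1, 4 went the other way, gained early and lost late. Time and the set of mice cannot be told apart.

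**Figure D5:**
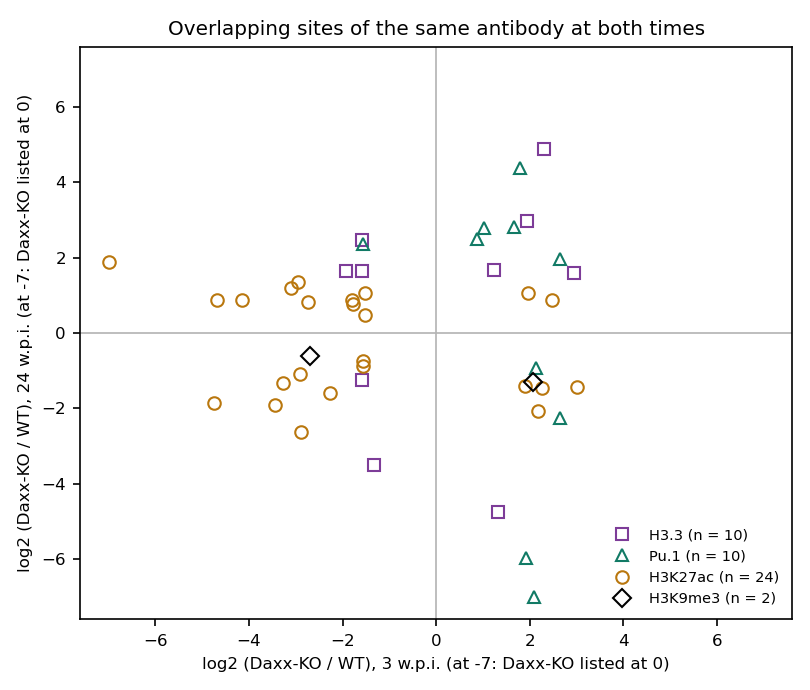
Log2 ratio of Daxx-KO to WT at 3 w.p.i. (horizontal) and 24 w.p.i. (vertical) for each pair of overlapping called sites of one antibody at the members. Points at -7 are sites listed at 0 in both Daxx-KO libraries, and the upper left part holds the 10 of 24 H3K27ac pairs lost at 3 and gained at 24 w.p.i. (21.6% of all H3K27ac pairs).

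The other 24 genes of the pathway, 22 of them on autosomes, were looked at in the same way. At 24 w.p.i. the maintenance DNA methyltransferase Dnmt1 had promoter gains of H3K27ac, 1500 and 1530 against 698 and 644, and of H3K9me3, 25.5 and 74.0 against 6.22 and 9.37, with a loss of H3K27me3, 44.7 and 57 against 177 and 161. It had also lost a lower H3K27ac site and a Pu.1 site there. Uhrf1, which guides Dnmt1 to replicated DNA, gained H3K27ac (1210 and 1290 against 658 and 759) and lost H3K27me3 (17.6 and 36.8 against 82.2 and 97.1) and H3K9me3 (0 and 20.9 against 115 and 58.1). Morc2a, a partner of the HUSH silencing complex, gained H3K27ac (1230 and 1070 against 736 and 595) and H3K9me3 (26.8 and 68.8 against 0 and 1.87). Dnmt3b, a de novo DNA methyltransferase, was the exception in H3K27me3, which it gained, 246 and 258 against 77.5 and 120. The principal promoter of Suv39h1, the paralogue of Suv39h2 on chromosome X, gained H3.3, Pu.1 and H3K27ac sites and lost an H3K9me3 site at 3 w.p.i., and that of Atrx, the partner of Daxx, gained H3.3, Pu.1 and H3K9me3 sites. Both genes are on chromosome X, where the sex of the mice, which the labels used here do not give for each library, can move values, and the tables at 24 w.p.i. leave this chromosome out.

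Of the 24 genes 22 had a principal promoter changed in the same direction in more than 1 table, and many of these changed in both directions. The share of all genes that meet this rule was not computed. At 24 w.p.i. alone, 40.3% of genes had a gained H3K27ac site and 39.8% a lost H3K27me3 site at a principal start. The count of 22 is therefore not read as a trait of the list. The H3K9 demethylase Kdm4a had lost sites in 5 tables and gained ones in 3. At 24 w.p.i. its highest H3K27ac site was gained, 310 and 673 against 288 and 251, and its H3K9me3 site was lost, 2.55 and 5.21 against 56 and 28.1. Kdm4c had lost sites in 4 tables and a gained one in 1, and Kdm4b gained sites in 4 and lost ones in 3. Kdm1a, another demethylase, had 3 of each. Fam208a (Tasor), a subunit of HUSH, had lost sites in 4 tables and gained ones in 2, and Mphosph8 and Pphln1, its partners, had lost sites in 3 and in 2 tables and gained ones in 1 each. The de novo DNA methyltransferase Dnmt3a had lost sites in 4 tables and gained ones in 3. Its highest H3K27ac site at 24 w.p.i. was called lost, 42.7 and 64.4 against 172 and 63.3, with 1 WT library below the higher Daxx-KO value. Cdyl, which binds H3K9 methylation, had lost H3K27ac at both times, at 24 w.p.i. with 62.2 and 29.3 against 275 and 46.7, where the genotypes also overlapped. In all, Cdyl had lost sites in 3 tables and gained ones in 3. Smarcad1, a chromatin remodeller, had lost sites in 3 tables, H3K27ac at both times among them, and Setdb2 in 2. Each also had a gained site in 1, for H3K27ac at 24 w.p.i. There the highest H3K27ac site of both promoters was gained. It was 859 and 792 against 447 and 612 at Smarcad1, and 836 and 960 against 543 and 496 at Setdb2. Chaf1b, a subunit of the CAF-1 histone chaperone, had 3 tables of each direction, and Zfp809, a KRAB zinc-finger protein, 2 of each. Sumo2 had gained sites in 3 tables, and Wiz and Ehmt2, partners of Ehmt1, in 2 each. Ehmt2 had also lost H3K27ac at 3 w.p.i. The exceptions with 1 table in all were Hells and Chaf1a.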

How the data were processed

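CUT&Tag libraries of sorted HSPCs were compared by the authors with diffReps 1.55.6, which slid windows of 600 bp in steps of 50 bp with fragments of 100 bp over the mm10 genome, tested them with a negative binomial test at a window p cutoff of 0.0001 and merged them into sites. Per the file headers each deposited value is a normalized count, a library's reads in the site over a scaling constant of that library. The adjusted p-value deposited by the authors was used only as the rule for a call (below 0.05), and their fold changes and group means were not used. Ratios were computed from the library values. The submitters' processing notes also name CASAVA 1.8.4, cutadapt 1.13, STAR 2.5.3 and bedtools, with no role given. How reads with several placements were treated is not given in the sources used here. The tables at 24 w.p.i. leave out chromosomes X and Y.

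Of 15 tables, 14 were used and 1 was left out, the H3K27me3 comparison of Daxx-KO with WT at 8 w.p.i., whose control columns are H3K9me3 libraries. No column of another series was found. Sites were assigned to a gene when they overlapped its GENCODE M21 body plus 10 kb on each side by at least 1 bp. Promoters were the 1 kb around an annotated or principal start. The members and the list of 24 other genes were chosen with earlier results of these data known, and nothing is tested over them. Named sites were, for each member, the highest called site in a table, the highest within 1 kb of a start, and those overlapping between times or antibodies. Other genes were named where a promoter changed in one direction in more than 1 table. Since every listed site was pre-selected by that test, no model could be fitted across features. Sequences were read from the RefSeq copy of GRCm38, the assembly also called mm10. Python 3.11.15, numpy 2.4.6, pandas 2.3.3, scipy 1.17.1 and matplotlib 3.10.9 were used, and the assignment of sites to genes was tested on simulated data with 200 genes. The alternatives tried were stricter calls, a minimum of 10 normalized counts, no flanks, promoters of 250 bp and 3 kb, leaving out each library, and 2 chosen after seeing the data, scaling by mean reads per window and principal starts only.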

Additional observations from a re-analysis of the deposited data

Results flagged for a closer look

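These results were picked out because a site was called in opposite directions at 3 and 24 w.p.i., with all libraries of one genotype on one side of the other at both times. The difference between times was not tested in any of them, and time and the set of mice cannot be told apart. Values are log2 ratios of Daxx-KO to WT, the earlier time first.

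For H3.3, sites near the Ube2m end of the Trim28 flank went from -1.92 to 1.65, from -1.59 to 1.65 and from -1.59 to 2.46, 3 overlaps of 4 sites. The early site at -1.59, chr7:13039601-13040750, also overlapped a site lost at 24 w.p.i., chr7:13040251-13041050. In the same flank chr7:13035551-13036200 was lost early and overlapped a site lost late, so that the flank did not change as a whole. An intron of Morc3 went the other way, from 1.32 to -4.76.

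For Pu.1, the Suv39h2 start went from 2.13 to -0.94. At Ehmt1 a site over an inner start went from 1.91 to -5.97, and a site near Arrdc1 went from 2.08 to a value listed at 0 in both Daxx-KO libraries (37.4 and 40 in WT). The GT repeat in Atf7ip went from 2.65 to -2.25 (a second overlapping site at its end was gained at 24 w.p.i., 1.98), and the stretch beyond the 3′ end of Cbx5 from -1.57 to 2.37.

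For H3K27ac, 10 of 24 overlaps were lost early and gained late, as were 21.6% of all overlapping H3K27ac sites. At Setdb1 they were an internal site (-4.68 to 0.87) and the start (-2.75 to 0.82), and at Suv39h2 the start (-1.53 to 0.47) and the stretch before it (-1.53 to 1.06). The site upstream of Ehmt1 went from -2.96 to 1.36. At Cbx5 the upstream sites went from -1.8 to 0.87 and from -3.11 to 1.19, beyond the 3′ end of Cbx1 a site went from -4.16 to 0.88, and at Cbx3 the start went from -1.77 to 0.78. At Morc3 a site was listed at 0 in both Daxx-KO libraries at 3 w.p.i., with a WT mean of 17.42 normalized counts, and had a log2 ratio of 1.9 later. The other 4 overlaps lay inside Ehmt1 and were gained early and lost late, 3.01 to -1.44, 2.25 to -1.47, 1.9 to -1.41 and 2.18 to -2.08.

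For H3K9me3, overlapping sites upstream of the principal Atf7ip start went from 2.07 to -1.3.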

How the results depend on the processing

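Without flanks, the members' called sites numbered 19 for H3.3 at 3 w.p.i. (31 with flanks), 2 for H3K9me3 at 3 w.p.i. (4 with flanks, and 100% gained in place of 50.0%), 38 for Pu.1 at 24 w.p.i. (60), 9 for H3K27me3 at 24 w.p.i. (16), 2 for H3K27me3 in DKO against WT (4) and 0 in DKO against Daxx-KO (2). A minimum of 10 normalized counts left 1 of these last 2. Among members with a changed site within 1 kb of any annotated start, a width of 250 bp gave 1 in place of 2 for lost H3.3 and 3 in place of 5 for lost H3K27ac at 3 w.p.i., 0 in place of 1 for gained H3K9me3 at 3 w.p.i., 1 in place of 2 for gained Pu.1 and 2 in place of 4 for lost H3K27ac at 24 w.p.i. A width of 3 kb gave 1 in place of 0 for lost Pu.1 and 5 in place of 3 for gained H3K27ac at 3 w.p.i., 1 in place of 0 for lost H3K9me3 at 8 w.p.i. and 4 in place of 2 for gained Pu.1 at 24 w.p.i. Principal starts alone, chosen after seeing the data, gave at 3 w.p.i. 1 in place of 2 for lost H3.3, 3 in place of 6 for gained Pu.1, 1 in place of 3 for gained and 3 in place of 5 for lost H3K27ac, and 0 in place of 1 for gained H3K9me3. At 24 w.p.i. they gave 1 in place of 4 for gained and 0 in place of 2 for lost H3.3, 1 in place of 2 for gained and 2 in place of 4 for lost Pu.1, and 2 in place of 4 for gained H3K9me3. Each of these settings takes in fewer or more bases by construction.

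Leaving out a library moved 1 count by over 1.5 times, H3K9me3 in DKO against WT, which ran from 1 (without DKO replicate 2) to 2. Scaling by mean reads per window, also chosen after seeing the data, kept the direction of all 415 member sites. It moved the median log2 ratio of all called sites by 0.49 for H3.3, 0.37 for Pu.1, 0.3 for H3K27ac and -0.23 for H3K9me3 at 3 w.p.i., by -0.2, -0.61 and -0.37 for the H3K9me3 and by -0.24 and -0.31 for the H3K27me3 comparisons at 8 w.p.i., and by 0.18, 0.17, 0.56, 0.02 and 0.33 for H3.3, Pu.1, H3K27ac, H3K9me3 and H3K27me3 at 24 w.p.i. In all, 369 recomputed values stayed within the limits set for them, 28 moved and none reversed. No paired analysis was possible because the values are calls from the authors' tables, which come from no test run here, and equal replicate numbers mark different mice of different genotypes. Values at 8 w.p.i. rest on 0.2 to 3.29 reads per window, and the part of depth in the number of listed sites was not tested.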
